A study of Rattus norvegicus with 18 samples.

Results

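The stretch of rat chromosome 9 from 15 to 17 Mb (build rn6) was described in hippocampal DNA of 18 rats at every cytosine measured there. All rows of the deposited table with a position from 15000001 to 17000000 on chromosome 9 were taken, which gave 5591 of the 2330883 cytosines in all. They belonged to 3155 CpGs, 2436 of them measured on both strands, and lay between positions 15103848 and 16996961. Averaged in tiles of 1000 bp with 3 or more cytosines, they filled 342 of 151450 tiles. The stretch was selected on its kainic acid values: it holds 2 of the 5 cytosines called in that comparison and 7 of the 100 tiles with the smallest kainic acid p. Kainic acid differences are therefore given as a description, without a test, while the kindling comparison took no part in the choice and was tested.

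The rats were adult male Sprague-Dawley animals, an outbred stock, and the left hippocampus was taken. In the first model, seizures follow systemic kainic acid, a glutamate receptor agonist, and its groups were 3 kainic acid rats labelled with 3 Class V seizures and 7 kainic acid sham rats. In the second, intrahippocampal electrical kindling, the groups were 4 kindled rats with the same seizure label and 4 kindling sham rats. Class V seizures are the generalised convulsive stage of the behavioural scale. Seizure rats were sampled 24 hours after the last seizure, and the labels do not say what the sham rats underwent. The p-values set differences between groups against the spread between these rats, whatever its source. The labels give no batch, so a batch that followed the groups could not be told apart from a group difference.

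Methylation was read by reduced representation bisulfite sequencing, in which DNA is cut by MspI at CCGG and bisulfite turns unmethylated cytosines into bases read as T. In mammals most CpGs are methylated, while the CpG-rich starts of active genes are kept nearly free of methylation. The value of a cytosine is the share of reads that kept a C, so it mixes cell types and both parental chromosomes. A C-to-T difference in a rat's own DNA also reads as lost methylation. DNA sequence of these rats was not analysed here, so inherited base differences and methylation differences at the same cytosine cannot be told apart. Read depth is unknown, since the table holds fractions only.

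Promoters were placed in rn6 by matching the spacing of CpGs in RefSeq promoter sequences of build GRCr8 to the spacing of the measured CpGs. Of 33469 sequences of 300 bases, from 250 before to 50 after a gene's start, 16 were placed, all in the order they have in GRCr8. A pair of them is shown because they have the shortest distances to any CpG that sets rats apart below, 12755 bp for Tbcc and 1571 bp for Ptk7. Mrps10, not shown, is the nearest placed promoter for most of those CpGs. Capitals mark the CpGs measured in the rats, each sequence reads 5′ to 3′ along its gene's strand, and the coordinates in brackets are those of GRCr8.
Tbcc (GRCr8 chr9:21597611-21597910, minus strand): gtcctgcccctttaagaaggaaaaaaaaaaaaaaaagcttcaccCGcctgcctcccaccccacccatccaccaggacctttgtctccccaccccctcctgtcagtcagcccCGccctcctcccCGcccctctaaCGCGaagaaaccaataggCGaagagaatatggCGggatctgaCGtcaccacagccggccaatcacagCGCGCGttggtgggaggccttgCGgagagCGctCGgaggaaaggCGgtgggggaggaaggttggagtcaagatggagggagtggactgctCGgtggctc
Ptk7 (GRCr8 chr9:21849506-21849805, plus strand): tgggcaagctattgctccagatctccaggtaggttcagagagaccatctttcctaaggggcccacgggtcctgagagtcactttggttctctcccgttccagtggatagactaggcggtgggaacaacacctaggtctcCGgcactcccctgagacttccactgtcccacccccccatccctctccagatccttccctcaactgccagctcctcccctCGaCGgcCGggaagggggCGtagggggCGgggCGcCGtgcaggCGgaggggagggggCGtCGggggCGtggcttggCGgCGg
Tbcc encodes tubulin folding cofactor C, and its 16 measured CpGs spanned rn6 positions 16406313 to 16406561. Ptk7 encodes a kinase-like receptor without catalytic activity that acts in planar cell polarity, and its matched CpGs spanned 16662433 to 16662591.

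The stretch had the bimodal levels of CpG-rich DNA. The mean level over all rats was below 10% at 45.6% of its cytosines, from 10 to 90% at 22.9% and above 90% at 31.5%. Over the whole table these shares were 48.1%, 23.4% and 28.6%. The mean was 44.9% in the stretch and 42.6% over all cytosines. In windows of 250 kb the mean ran from 28.5% in the second window, which holds the starts of Frs3, Tomm6, Med20 and Bysl, to 66.2% in the first. No cytosine was measured between 16089977 and 16380398, the longest such gap, 290421 bp long.

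The placed promoters were unmethylated in every rat apart from the cytosines inside CCGG. All 393 promoter cytosines outside CCGG averaged under 10%, with a median of 1.25% and a highest mean of 5.26%. The 33 inside CCGG, the MspI recognition site, averaged from 91.4 to 98.9%, with a median of 97.8%. Both strands of the CpG were measured for 356 of the 393 and 14 of the 33. The cause of this split was not tested, and promoter levels below leave out CCGG cytosines. With them the placed promoters average up to 21.1%, at Rrp36. Levels of tiles, windows and the whole stretch keep CCGG cytosines.

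Placing needed at least 8 matched CpGs, so CpG-poor promoters could not enter, and all placed promoters had such low levels. Among the placed ones were genes for protein synthesis. Bysl, needed for making the small ribosomal subunit, averaged 1.94% over its promoter, Mrps10 of the mitochondrial ribosome 1.76%, and Rrp36, which acts in ribosomal RNA processing, 2.03%, the highest of all. Among genes of protein turnover, Cul7 averaged 1.14% and Cul9 1.71%, both encoding cullin scaffolds of ubiquitin ligases, and Klhdc3, a substrate adaptor, 1.45%. Med20, a subunit of the Mediator complex of transcription, had 1.46%, and Tomm6 of the mitochondrial import pore 1.48%. The measured windows of Bysl and Med20 overlap, as do those of Klhdc3 and Mea1, so their averages share cytosines. Ptk7 was lowest at 0.434%. Srf, the serum response factor that drives activity-dependent genes in neurons, shares its window with the divergent RNA gene LOC120094784 and averaged 0.928%.

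Levels at these promoters were low in every group. The Tbcc promoter averaged 1.12% ± 0.267 in the 3 kainic acid seizure rats and 1.17% ± 0.532 in the 7 kainic acid sham rats (SD), and 1.73% ± 1.81 in kindling seizure rats and 1.19% ± 0.486 in kindling sham rats (SD, n = 4 each). The Srf promoter averaged 1.08% ± 0.537 in the 3 kainic acid seizure rats and 0.836% ± 0.289 in the 7 kainic acid sham rats (SD), and 1.08% ± 0.15 in kindling seizure rats and 0.824% ± 0.238 in kindling sham rats (SD, n = 4 each). Across all placed promoters the mean of any rat lay between 0 and 5.24%, both ends at 9 cytosines of Cul7, whose highest rat was a kainic acid seizure rat.

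**Figure D1:**
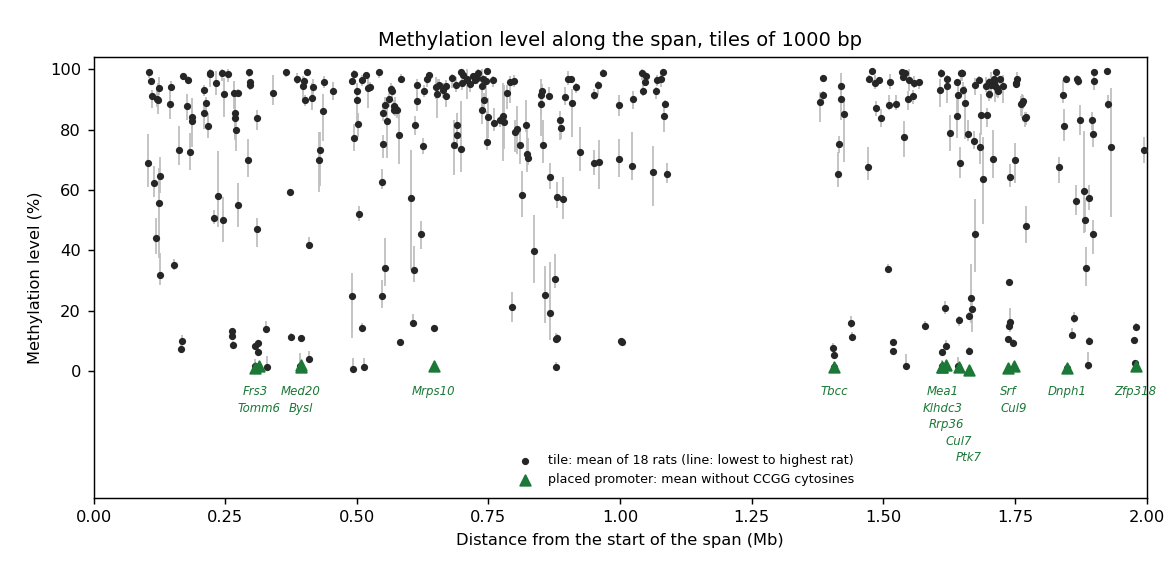
Mean methylation level in percent of the 342 tiles of the stretch (dots, with a line between the lowest and the highest of the 18 rats) against distance from its start in Mb, and of the placed promoters without CCGG cytosines (triangles, gene names below). Promoters sit between 0.434 and 2.03%, while most other tiles lie far above, but tile means keep CCGG cytosines. The gap near the middle is the stretch of 290421 bp with no measured cytosine.

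Most cytosines differed little between rats. A range over the 18 rats of 40 points or more was found at 119 cytosines, 2.13% of the stretch, against 2.64% of the whole table. A range of 60 points or more was found at 8 cytosines, 0.143%, against 0.554%. The median range was 6.67 points in the stretch and 6.48 points over all cytosines.

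The rats that departed from the rest were few and departed together. At 2446 CpGs the median of the 18 rats was under 10% or above 90%, and a rat was taken as apart where it lay 20 points or more from that median. Kainic acid seizure rat 2 was apart at 13 CpGs, kainic acid seizure rat 3 at 13 and kindling sham rat 1 at 11. Kainic acid sham rat 5 was apart at 3, kainic acid seizure rat 1 and kindling sham rat 4 at 2 each, and no other rat at more than 1. The shares of the 3 leading rats were 0.531%, 0.531% and 0.450%, while over all such CpGs of the table the 18 rats ran from 0.0745 to 0.204%. In the stretch, 22 CpGs had any rat apart: 9 had exactly 1 rat, 2 had 2, 10 had 3 and 1 had 4 or more. CpGs with 2 or more rats apart made up 0.531% of the stretch and 0.354% of the table. The selection of the stretch used the levels of kainic acid seizure rats 2 and 3, so nothing is read from shares above those of the table.

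**Figure D2:**
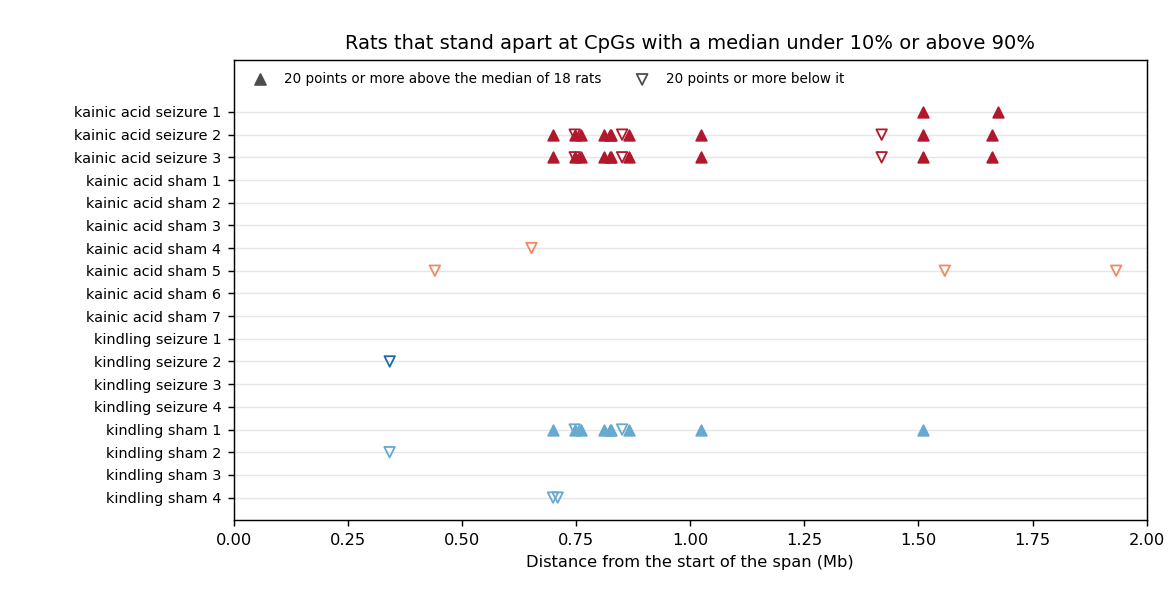
Each row is a rat, and each marker a CpG with a median under 10% or above 90% at which that rat lay 20 points or more above (filled) or below (open) the median of the 18 rats, by distance from the start of the stretch in Mb. Kainic acid seizure rats 2 and 3 and kindling sham rat 1 have markers at the same places, with 13, 13 and 11 CpGs, and some markers overlap.

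At the limits given here, the shared departures formed 1 correlated block. CpGs were joined where their levels over the 18 rats had a Pearson r of at least 0.9 in size and a range of at least 40 points, and the 58 CpGs of that range gave 1 block of at least 3 members. It held 13 CpGs from 15698862 to 16419316, an extent of 720455 bp. The 78 pairwise values of r ran from 0.835 to 0.999 in size, with a median of 0.958. They describe points that share 18 rats and mainly reflect 3 of them. The extent begins 52388 bp beyond the measured end of the Mrps10 promoter and ends 12755 bp beyond that of Tbcc. In GRCr8 the coding genes between Mrps10 and Tbcc are Trerf1, which encodes a transcriptional regulator, Ubr2, a ubiquitin ligase that reads protein ends, and Prph2, a structural protein of photoreceptor discs.

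At each of the 13 CpGs, kainic acid seizure rats 2 and 3 lay in the middle of the scale. Their distance from the median of the 18 rats was 28.9 to 62.5 points in rat 2, with a median of 46.0, and 25.2 to 64.0 points in rat 3, with a median of 46.7. Kindling sham rat 1 moved the same way by less, 15.2 to 38.9 points with a median of 26.3. Its shift was a median of 64.0% of that of rat 2 and 62.3% of that of rat 3, and it lay between both of them and the other kindling shams at 12 of the 13 CpGs. Kainic acid seizure rat 1 stayed within 4.58 points of the median. Among the 15 rats outside the leading 3, the farthest value was 16.8 points, in kindling sham rat 3 at 15850545.

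The direction depended on the level in the other rats. At 8 CpGs, where the median of all rats was low, the 3 rats were higher, and at the 5 where it was high they were lower. The first CpG, at 15698862, was at 3.23%, 62.5% and 64.0% in kainic acid seizure rats 1 to 3 and at 0% in all 7 kainic acid sham rats. It was also at 0% in all 4 kindling seizure rats, and at 20%, 0%, 0% and 0% in kindling sham rats 1 to 4. This was the widest range of the block, on the plus strand alone.

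A neighbouring pair showed both directions within 412 bp. At 15746687 the kainic acid seizure rats had 97.0%, 51.0% and 42.5%, against 95.1 to 100% with a median of 98.1% in the kainic acid sham rats. The kindling seizure rats had 98.5%, 97.1%, 96.5% and 98.1% there, against 74.1%, 97.1%, 98.4% and 93.2% in kindling sham rats 1 to 4. Rats 2 and 3 and kindling sham rat 1 were thus the low ones. At 15747099 the kainic acid seizure rats had 0.448%, 46.9% and 47.4%, against 0 to 1.55% with a median of 0.650% in the kainic acid sham rats. The kindling seizure rats had 0.801%, 0.296%, 1.21% and 0% there, against 23.5%, 0.427%, 0% and 0% in kindling sham rats 1 to 4. Here the same 3 rats were the high ones.

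Both strands were measured at 8 of the 13 CpGs. At 15822980 the plus strand read 0.719%, 50.8% and 46.5% in kainic acid seizure rats 1 to 3 and 30.3% in kindling sham rat 1. The minus strand read 0.971%, 47.9% and 45.2% in the kainic acid seizure rats and 37.0% in kindling sham rat 1. The other 14 rats lay between 0 and 1% as the mean of both strands. At 16022635, more than 100 kb from any other CpG of the block, kainic acid seizure rats 1 to 3 had 0.685%, 42.7% and 47.5%, kindling sham rat 1 had 26.7% and the other 14 rats 0 to 3.35%.

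Most measured neighbours of these CpGs varied little. Within 500 bp of the 13 CpGs lay 58 other measured CpGs, and 5 of them had a range of 20 points or more. Around 15822980 there were 6, and none of them lay more than 2.86 points from its median in kainic acid seizure rat 2. The largest distance was 2.16 points in rat 3 and 2.40 points in kindling sham rat 1. Medians of neighbours leave out the kainic acid seizure rats and kindling sham rat 1. Beside 15826118 a neighbour moved with the block: it lay at -13.1 and -12.3 points from its median in kainic acid seizure rats 2 and 3 and -11.3 points in kindling sham rat 1, while the lowest neighbour in kainic acid seizure rat 1 was at -0.740 points. From the first to the last CpG of the block 636 CpGs were measured, 26 with a range of 40 points or more.

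The same profile was looked for in the whole table. Of the 28919 CpGs in the table with a range of 40 points or more, 14 had an r of 0.9 or more in size with the CpG at 15698862, itself included. Of these, 11 were in the stretch, 0 elsewhere on chromosome 9 and 3 on 1 other chromosome. The profile came from a CpG of the stretch, which was selected on kainic acid values, so these counts are a description.

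**Figure D3:**
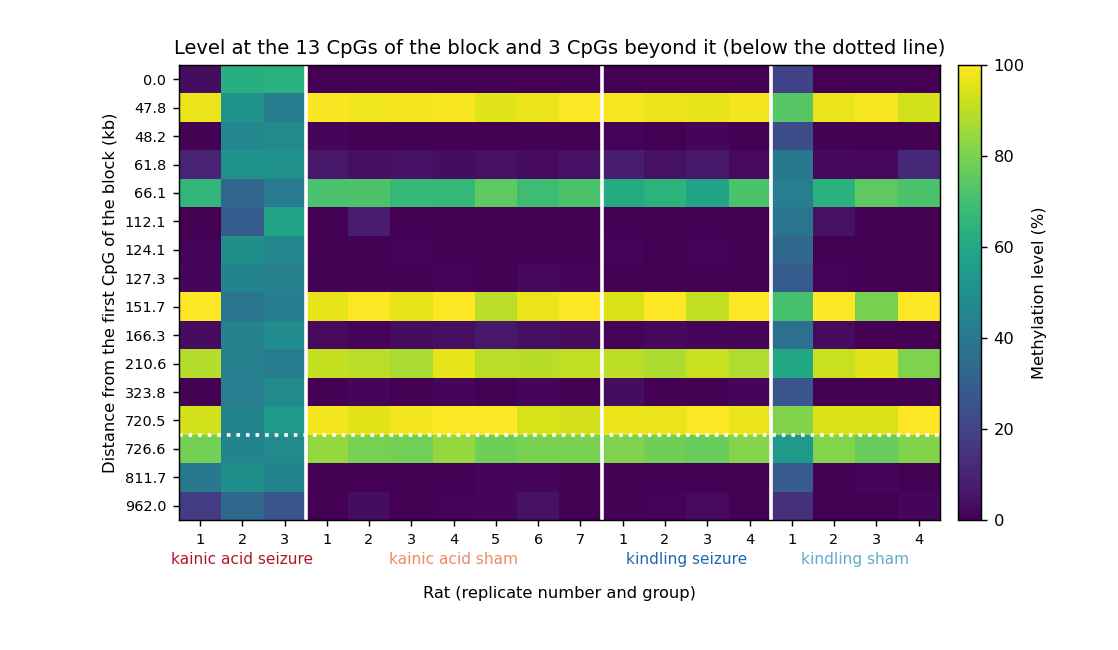
Methylation level in percent (colour) of the 13 CpGs of the block and of 3 CpGs beyond it (below the dotted line), in rows by distance in kb from the first CpG of the block, for each of the 18 rats in columns by group. Kainic acid seizure rats 2 and 3 sit in the middle of the scale in every row of the block, kindling sham rat 1 lies nearer to the other rats, and kainic acid seizure rat 1 joins them only in the last 2 rows.

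Beyond the block, 3 more CpGs set the same rats apart, and they are named because of those values. At 16425440, 18879 bp beyond the Tbcc promoter, the kainic acid seizure rats had 79.1%, 45.2% and 47.8%, against 77.8 to 84.3% in the kainic acid sham rats. The kindling seizure rats had 76.9 to 81.5%, against 53.9%, 81.3%, 76.7% and 81.0% in kindling sham rats 1 to 4. Its range of 39.1 points fell short of the limit of the block, and the pattern over rats was that of the block.

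At the other two CpGs kainic acid seizure rat 1 was also apart. At 16510571 the kainic acid seizure rats had 40.5%, 49.99% and 45.1%, against 0 to 1.55% with a median of 0.267% in the kainic acid sham rats. The kindling seizure rats had 0.350 to 0.670%, against 28.7%, 0.269%, 1.56% and 0.424% in kindling sham rats 1 to 4. All 3 kainic acid seizure rats were thus above all kainic acid sham rats, as was kindling sham rat 1. The 13 other CpGs measured within 500 bp all had a range under 10 points. In the kainic acid seizure rats they lay between -3.90 and 4.42 points of their medians. Those medians leave out the kainic acid seizure rats and kindling sham rat 1. At 16660861, which is 1571 bp before the first matched CpG of the Ptk7 promoter shown above, the kainic acid seizure rats had 17.7%, 33.9% and 26.2%, against 0 to 4.65% in the kainic acid sham rats. The kindling seizure rats had 0 to 2.72%, against 13.9%, 0%, 0% and 1.61% in kindling sham rats 1 to 4. Of its 6 measured neighbours within 500 bp, 4 had a range of 10 points or more and 1 of 20 or more. The lowest lay at -17.6 points from its median, taken in the same way, in kainic acid seizure rat 3. The Ptk7 promoter itself averaged 0.432% ± 0.203 in the 3 kainic acid seizure rats and 0.537% ± 0.463 in the 7 kainic acid sham rats (SD).

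Over all 170 tested tiles of the stretch, nearby pairs were slightly more alike than distant ones. The median size of r between the levels of a pair over the 18 rats was 0.238 for 238 pairs within 10 kb. It was 0.204 for 1552 pairs at 10 to 100 kb, 0.191 for 4665 pairs at 100 to 500 kb and 0.193 for 7910 pairs farther apart. With tiles of other chromosomes it was 0.191 over 137870 pairs. An r of 0.9 or more in size was found in 0.840% of pairs within 10 kb and 0.580% at 10 to 100 kb, against 0.00363% with other chromosomes. Without the 13 tiles that hold a CpG of the set of 16, the medians were 0.228, 0.203, 0.197 and 0.201 by rising distance, and 1 pair, more than 500 kb apart, reached an r of 0.9. These are descriptions over 18 shared rats.

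The kainic acid values that chose the stretch lay at those CpGs, except for 1 tile. The cytosines called at an adjusted p under 0.05 by limma numbered 2 of 1943 tested here, and 0.000624% of the 800753 tested in the table. They are the plus and minus strand of the CpG at 16510571. On the log2 odds scale 0 were called, and with the replicate number as a block 1 was called. The plus strand had 44.6%, 57.7% and 48.1% in kainic acid seizure rats, against 0 to 1.16% in kainic acid sham rats, a difference of 49.7 points. The minus strand had 36.5%, 42.3% and 42.1% in kainic acid seizure rats, against 0 to 2.40% in kainic acid sham rats, a difference of 39.8 points. Kindling sham rat 1 read 27.5% and 29.9% there. Of 170 tested tiles in the stretch 0 were called, and 0% of the 84600 in the table.

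Counts at an unadjusted p and counts of separated groups are given with the same counts over the table, and nothing is read from them, since this comparison chose the stretch. At an unadjusted limma p under 0.05, 21 tiles differed between kainic acid seizure and sham rats, 12 of them higher in seizure rats, and the share over the table was 3.54%. For cytosines the count was 119, against 3.82% over the table. The groups did not overlap at 8 tiles, 3 of them higher in kainic acid seizure rats, where the table had 1.49%, and at 49 cytosines, where the table had 1.53%.

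The 7 tiles among the 100 smallest kainic acid p show how much a single CpG carried. At 15698001, a tile of 4 cytosines, kainic acid seizure rats 1 to 3 had 73.8%, 89.3% and 89.6%, against 69.6 to 73.4% with a median of 71.3% in kainic acid sham rats, a difference of 13 points. Rat 1 was just above the sham rats and rats 2 and 3 far above. Without the CpG at 15698862 the difference was 2.91 points, and in tiles of 2000 bp it was 4.38 points. At 16425001, also of 4 cytosines, the kainic acid seizure rats had 85.7%, 69.3% and 71.1%, against 86.5 to 90.4% in the kainic acid sham rats, and the difference of -12.8 points became -2.42 without its CpG. Kindling sham rat 1 had 75.6% in that tile and its other kindling shams 86.2 to 89.3%. In the tiles at 15746001, 15747001, 15850001 and 16419001 the differences were -4.65, 7.93, -9.36 and -5.25 points, and without the CpG -0.660, 0.262, -0.281 and -0.650 points. In tiles of 2000 bp the difference at 15850001 was -2.90 points, and without kainic acid seizure rat 1 that at 15747001 was 11.9 points.

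The last of the 7 held no such CpG. The tile at 16655001, with 10 cytosines, had 76.8%, 85.7% and 82.6% in kainic acid seizure rats, against 88.1 to 94.4% with a median of 90.5% in kainic acid sham rats, a difference of -9.34 points. It had 90.2%, 91.6%, 91.2% and 92.2% in kindling seizure rats, against 82.8%, 89.3%, 89.0% and 88.3% in kindling sham rats. The kainic acid seizure rats and kindling sham rat 1 were the lowest of the 18. The tile lies 11621 bp beyond the measured end of the Cul7 promoter and 6433 bp before that of Ptk7, an interval that in GRCr8 holds Mrpl2, of the mitochondrial ribosome, and Klc4, a kinesin light chain.

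**Figure D4:**
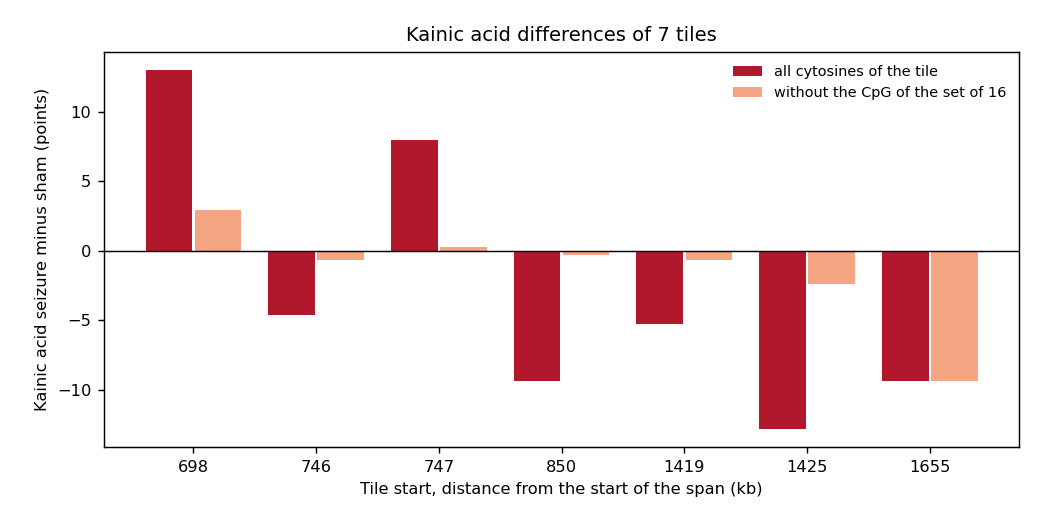
Kainic acid seizure minus sham difference in points for the 7 tiles, by tile start in kb from the start of the stretch, over all cytosines of the tile (dark bars) and without the CpG that belongs to the set of 16 (light bars). The 6 tiles on the left shrink to between -2.42 and 2.91 points without it, and the tile on the right, which holds none, stays at -9.34 points.

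Calls depended on which kainic acid seizure rat was in the fit. Without rat 1, limma called 28 cytosines in the table, 19 of them here, and 5 tiles, all 5 of them here. Without rat 2 it called 54 cytosines, 2 of them here, and 3 tiles, 0 of them here. Without rat 3 it called 4 cytosines, 1 of them here, and 0 tiles. Without kindling sham rat 1, which only enters the shared estimate of spread, it called 8 cytosines, 4 of them here.

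Between kindling seizure and sham rats no tile or cytosine of the stretch passed an adjusted p under 0.05 in limma. Of 170 tested tiles 0 were called, and 0% over the table, with a smallest adjusted p of 0.776 here. Of 1943 cytosines 0 were called, also 0% over the table, with a smallest adjusted p of 0.592. At an unadjusted p under 0.05 there were 9 tiles, or 5.29%, beside 5.71% over the table, and 8 of the 9 were higher in kindling seizure rats, where 62.8% were higher over the table. Among cytosines there were 132, or 6.79%, beside 5.72%, with 91 higher and 41 lower, or 68.9% higher beside 59.5% over the table. The groups did not overlap at 5 tiles, all higher in kindling seizure rats, or 2.94% beside 2.44% over the table. For cytosines this held at 47, or 2.42%, the same share as over the table.

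The tile with the smallest kindling p was the one at 15491001. Its 8 cytosines averaged 24.7%, 20.3%, 26.3% and 10.8% in kindling seizure rats, against 31.8%, 25.1%, 32.3% and 29.4% in kindling sham rats. The difference was -9.09 points (SE 2.78; limma adjusted p = 0.776), the groups overlapped, and kindling seizure rat 4 was far lower than the rest. Without that rat the difference was -5.85 points, and in tiles of 2000 bp it was -3.60 points. The tile lies between Bysl and Mrps10. The coding genes of that interval in GRCr8 are Ccnd3, Taf8, C9h6orf132, Cimip3, Guca1a and Guca1b. Ccnd3 encodes a cyclin of the G1 phase, and Taf8 a subunit of the general transcription factor TFIID. Where the tile lies relative to these genes was not determined. In the same interval the tile at 15608001 had 20 cytosines and averaged 40.1%, 33.7%, 37.9% and 35.2% in kindling seizure rats, against 31.9%, 31.0%, 30.2% and 32.4% in kindling sham rats. Every kindling seizure rat was above every kindling sham rat, by 5.35 points on average (SE 1.74; limma adjusted p = 0.781). It also had 35.4%, 41.4% and 34.2% in kainic acid seizure rats, against 29.3 to 32.6% in kainic acid sham rats. Kainic acid values chose the stretch, so nothing is read from the same direction in both models.

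Adjoining tiles between the Dnph1 and Zfp318 promoters were also among the higher ones. In GRCr8 that interval holds Ttbk1, a tau kinase of neurons, Slc22a7, an organic anion transporter, and Crip3, and where the tiles lie relative to these genes was not determined. At 16883001 the level was 52.4%, 55.9%, 57.3% and 49.1% in kindling seizure rats, against 49.5%, 47.8%, 47.1% and 47.3% in kindling sham rats (difference 5.71 points, SE 1.95; limma adjusted p = 0.792). The tile next to it, at 16884001 with 42 cytosines, had 35.8%, 39.4%, 41.0% and 32.8% in kindling seizure rats, against 37.3%, 32.9%, 30.4% and 28.3% in kindling sham rats, and a difference of 5.04 points (SE 2.26). The groups overlapped in both tiles. The other tiles named for a small kindling p differed by 3.67 points at 15502001, 3.97 at 16655001, -5.57 at 16062001, -2.44 at 15709001, -1.92 at 15398001 and -1.82 at 15121001, with limma adjusted p of 0.874 or more. Without kindling sham rat 1 the difference at 16655001 was 2.45 points. Without kindling seizure rat 1 it was -0.673 points at 15398001 and -3.45 points at 16062001.

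The cytosine with the smallest kindling p lay in the tile at 16655001. At 16655684 on the plus strand, kindling seizure rats had 92.1%, 94.9%, 92.4% and 92.0%, against 75.0%, 80.7%, 81.8% and 78.9% in kindling sham rats. The difference was 13.7 points (SE 2.84; limma adjusted p = 0.592) with no overlap. Kainic acid seizure rats had 87.9%, 84.9% and 78.2%, against 87.2 to 97.8% in kainic acid sham rats. None of the tested cytosines in the 16 CpGs above had a kindling p under 0.104 (limma, adjusted p of 0.888 or more), and there the kindling sham group held the rat that stood apart.

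Averaged over the whole stretch, seizure rats were slightly above sham rats. The mean of all 5591 cytosines was 45.1% ± 0.444 in kindling seizure rats and 44.7% ± 0.395 in kindling sham rats (SD, n = 4 each). The difference of 0.423 points had a two-sided exact permutation p of 0.2, where 70 arrangements allow no p below 0.0286, and over all cytosines of the table it was 0.267 points. Without kindling seizure rat 3 it was 0.259 points (exact permutation p = 0.4), and leaving out any other kindling rat gave 0.301 to 0.588 points. In the kainic acid model the mean was 45.2% ± 0.102 in seizure rats and 44.8% ± 0.316 in sham rats (SD, n = 3 and 7), a difference of 0.393 points, against 0.331 over the table.

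The 1280 cytosines with a mean of 10 to 90% were separated between the kindling groups. They averaged 60.5%, 60.2%, 60.6% and 59.98% in kindling seizure rats, against 59.1%, 58.4%, 59.6% and 59.3% in kindling sham rats. Every kindling seizure rat was above every kindling sham rat, with means of 60.3% ± 0.293 and 59.1% ± 0.523 (SD, n = 4 each). The difference was 1.24 points, with an exact permutation p of 0.0286, the smallest possible, and an adjusted p of 0.0571 over the 6 such tests made, so that it did not pass the correction. For the 543213 cytosines of that kind outside the stretch it was 0.476 points (exact permutation p = 0.286, also after adjustment). The level of the stretch minus that outside was -0.0958 ± 0.240 in kindling seizure rats and -0.863 ± 0.117 in kindling sham rats (SD, n = 4 each), a difference of 0.767 points (exact permutation p = 0.0286, adjusted 0.0571). Leaving out any kindling rat gave 0.997 to 1.40 points for the stretch, each with an exact permutation p of 0.0571, the smallest that 7 rats allow. In the kainic acid model these cytosines averaged 60.3% ± 0.0706 in seizure rats and 59.6% ± 0.669 in sham rats (SD, n = 3 and 7), and the sham rats ran from 58.7 to 60.5%.

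**Figure D5:**
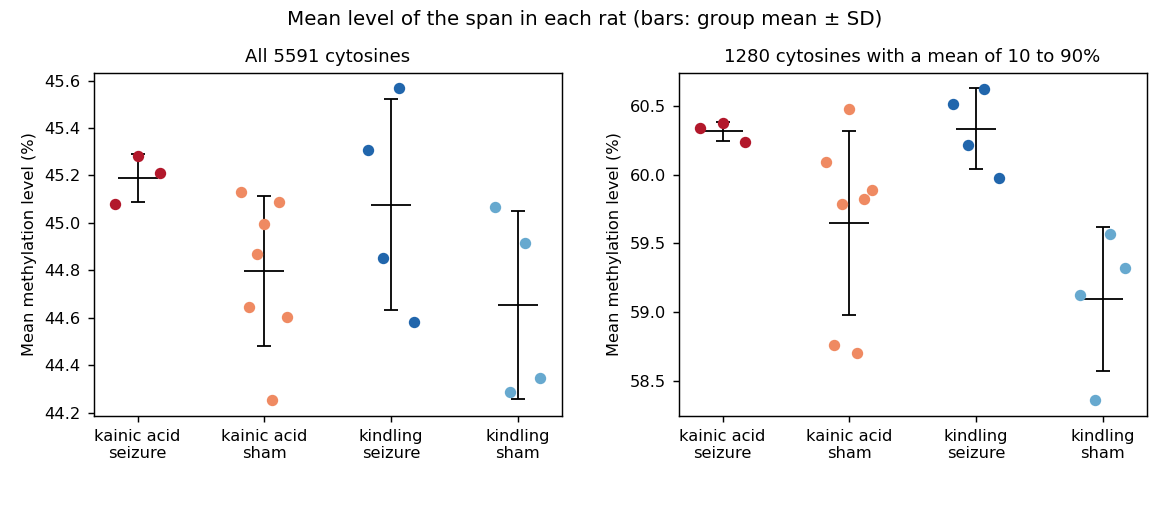
Mean methylation level in percent for each rat (dots) with the group mean and SD (bars), over all 5591 cytosines (left) and over the 1280 with a mean of 10 to 90% (right); the axes do not start at 0. On the right all kindling seizure rats lie above all kindling sham rats, 60.3% ± 0.293 against 59.1% ± 0.523, and on the left the groups of each model overlap.

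The sham groups of both models were compared to show how far rats without seizures differed. These values share the kainic acid sham rats with the kainic acid comparison and the kindling sham rats with the kindling comparison. Of the tested tiles and cytosines here 0 were called by limma, and 0% over the table. At an unadjusted p under 0.05 there were 13 tiles, or 7.65% beside 6.35% over the table, and 106 cytosines, or 5.46% beside 6.16%. Of the 13 tiles, 9 or 69.2% were higher in kainic acid sham rats, beside 51.7% over the table. Of the 106 cytosines, 68 or 64.2% were higher in them, beside 53.2%. The sham groups did not overlap at 0 tiles, beside 0.878% over the table, and at 14 cytosines, or 0.721% beside 0.704%. The smallest p belonged to the tile at 15428001, which ran from 63.3 to 79.1% with a median of 73.2% in kainic acid sham rats, while kindling sham rats had 62.5%, 70.6%, 67.5% and 59.2% (difference 7.14 points, SE 2.67; limma adjusted p = 0.675). The next 4 tiles, at 15398001, 15813001, 15651001 and 15801001, differed by -3.05, 5.92, 2.83 and 4.23 points, with limma adjusted p of 0.698 or more. For the cytosine at 16655684 the sham difference was 13 points (SE 2.52; limma adjusted p = 0.294).

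The tiles with the widest range over rats were not those of the block, apart from 15698001. The widest was 16933001, which ran over 42.5 points in 3 cytosines: 84.5%, 78.7% and 69.2% in kainic acid seizure rats, 51.2 to 81.7% in kainic acid sham rats, 59.7 to 93.7% in kindling seizure rats and 73.8 to 79.7% in kindling sham rats. At 15603001 the range of 39.7 points came from kindling seizure rat 4 with 73.3% and kindling sham rat 4 with 33.6%. The other 7, at 16882001, 15125001, 16690001, 15778001, 15867001, 15236001 and 16674001, had ranges of 24.1 to 33.6 points and levels that overlapped between seizure and sham rats in kindling. Kindling differences in these 9 tiles ran from -5.72 to 8.91 points, with limma adjusted p of 0.899 or more.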

How the data were processed

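Hippocampal DNA of 18 rats was measured by reduced representation bisulfite sequencing. FastQC, Trim Galore, Bismark, Bowtie2, methylKit and build rn6 are named in the submitters' processing notes, without versions; coverage limits are not given there. The deposited values are methylation fractions per cytosine and strand, per the labels and the values, and 0 value columns went unused. Depth is unknown, so single values have no interval. Levels were turned into percent and averaged in tiles of 1000 bp with 3 or more cytosines. Tiles with a range over rats of at least 5 points (84600) and cytosines with at least 10 (800753) were tested with limma 3.58.1 in R 4.3.3, in 1 fit over all 4 groups with 14 residual degrees of freedom and Benjamini-Hochberg adjustment over the table; the fit was tested on simulated data. Means per rat were compared by exact permutation. A CpG is the mean of its measured strands. Promoters were placed with at least 8 matched CpGs, 90% of measured and 30% of sequence CpGs matching. Tiles named were the 7 of low kainic acid p, the 5 of smallest kindling p each way, the 5 of smallest sham p and the 10 of widest range; cytosines named were those called, with their neighbours, and the widest CpG of the block, and the other 14 CpGs and the cytosine at 16655684 were added after their values were seen. The members, lists and rules were chosen with earlier results of these data known. Same-numbered rats did not deviate together (r of -0.111 to 0.155 in kindling and -0.0418 to -0.0156 in kainic acid), so numbers were not taken as pairs. Alternatives covered tile length, cytosines per tile, range filters, the log2 odds scale, averaged strands, a fit of kindling rats alone, the replicate number as a block and leaving out each rat. Figures used Python 3.11.15 and matplotlib 3.10.9.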

Additional observations from a re-analysis of the deposited data

Results flagged for a closer look

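Of 135 groups of 4 to 7 rats examined, nearly all at the named tiles and CpGs, 20 held a rat far from the rest of its group. The tiles and CpGs were named for their values, and many levels lie at the ends of the scale. The count can therefore not be set against chance. Kindling sham rat 1 was that rat at 10 CpGs, which are mostly CpGs of the block and were chosen for such values. It had 20% at 15698862, 23.5% at 15747099, 38.9% at 15810953, 33.6% at 15822980, 29.1% at 15826118, 36.6% at 15865189 and 26.7% at 16022635, where the other 3 kindling sham rats had at most 4.35%. It had 53.9% at 16425440, 28.7% at 16510571 and 13.9% at 16660861. Kindling sham rat 1 also stood apart in the tiles at 15747001, with 80.1%, and 16655001, with 82.8%, where the other kindling sham rats had 88.3 to 89.3%.

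Other rats stood apart by less at the CpGs of the block. Kainic acid sham rat 2 had 7.5% at 15810953 where its group was at 0%, kainic acid sham rat 5 had 89.5% at 15850545, and kainic acid sham rat 4 had 96.1% at 15909422. Kindling seizure rat 1 had 0.362% at 15826118, where the rest of its group had 0%. Kindling seizure rat 3 had 100% at 16419316, where the rest of its group had 96.9 to 97.1%. Both gaps are small, and read depth is unknown. Among tiles, kindling sham rat 4 had 33.6% at 15603001, kindling seizure rat 3 had 74.9% at 15801001, and kainic acid sham rat 1 had 79.5% at 16882001, where the other kainic acid sham rats had 54.0 to 62.7%.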

How the results depend on the processing

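Of the named tile differences, 496 values under the alternatives were counted as kept. For kindling and sham tiles this means the same direction and side of the threshold, which no such tile passed. Kainic acid tiles had no threshold, and a value counted as kept in the same direction and within the largest group SD of the main value. Sizes moved by over 1.5 times in several, most of them given beside the tile. Differences not given there were, in kindling, -1.13 points at 15121001 without kindling seizure rat 3 and also without kindling sham rat 3, and -2.90 without kindling sham rat 4, -1.32 and -4.08 at 15709001 without kindling seizure rat 4 and without kindling sham rat 4, and -3.68 at 16062001 without kindling sham rat 3. The 6 that moved are the kainic acid differences without the CpG (2.91, -0.660, 0.262, -0.281, -0.650 and -2.42 points), an alternative added after seeing the data. Of the values that answer a comparison 177 stayed and 13 changed. The kindling difference of the stretch reached the smallest possible raw p for cytosines of 10 to 90% (1.24 points, exact permutation p = 0.0286) and after subtracting the other autosomal cytosines (0.154 points, exact permutation p = 0.0286), both with an adjusted p of 0.0571 over 6 tests, and the kainic acid difference became 0.0613 points by that subtraction. Kindling tiles at an unadjusted limma p under 0.05 numbered 9, and 16 with no range filter, 3 with a range of at least 10 points, and 6 to 19 without a rat, 19 of them without kindling seizure rat 4. Kainic acid cytosines called numbered 2, and 0 on the log2 odds scale, 4 with no range filter, and 1 to 19 without a rat: 19 without kainic acid seizure rat 1, 1 without kainic acid seizure rat 3 and 4 without kindling sham rat 1. The causes were not tested. The block held 13 CpGs, and 12 to 14 without a rat. It held 16 at an r of 0.8 or more and 16 at a range of 20 points or more (added after seeing the data). An r of 0.8 or more gave 3 blocks, the second of 4 CpGs, and the range of 20 points gave 5, the second of 3. Without a rat there were 1 or 2 blocks, the second of 3 CpGs. At a range of 60 points or more, with 8 CpGs left, there were 0 blocks. Tiles of 500 bp and the log2 odds scale gave no value for the named tile differences. Depth is unknown, so how far read counts limit single values could not be computed.

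With the replicate number as a block, 0 kindling tiles and 0 kindling cytosines were called, 9 kindling tiles had an unadjusted limma p under 0.05, and 1 kainic acid cytosine was called. For the mean of the stretch, exact sign flips over the 4 same-numbered kindling pairs gave p = 0.125, the smallest they allow, for the difference of 0.423 points. Of the seizure rats, only kindling seizure rat 1 correlated best with the sham rat of its own number, at an r of 0.115. The sham comparison could not be fitted with this block.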
